A study of Mus musculus with 8 samples.

Results

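The genes of glucose entry, glycolysis and glycogen handling were followed in 8 gastrocnemius RNA libraries of C57BL/6 mice. The set was a list of 29 named genes, of which 28 passed the filter on low counts among 13174 rows tested. The remaining member, the enolase gene Eno1, was listed at 0 in all 8 libraries. A count of 0 allows up to 3 counts, or 0.243 to 0.315 CPM (counts scaled to a common library size), by counting error alone. That limit holds for reads counted to this row and does not bound the gene's expression if its reads were counted elsewhere or dropped. The list was ordered into 4 genes of glucose entry, 7 of upper glycolysis and its control, 9 of lower glycolysis and 9 of glycogen handling.

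The libraries were made from the 3′ ends of transcripts of a calf muscle, and fall into 3 titled groups. The 2 libraries titled RP came from mice injected under the skin with Lewis lung carcinoma cells (a transplantable C57BL/6 tumour), which were then dosed orally each day, for 2 weeks, with an extract of Paeonia lactiflora (a peony) made in 30% ethanol, at 100 mg/kg. The 3 libraries titled Control came from mice with the same tumour that received 200 µl of distilled water. The 3 libraries titled Normal came from mice injected with saline that received the same volume of water. The mice were 4 weeks old when the tumour cells were injected, per the series' design text, and dosing began 2 weeks later, after tumour-bearing mice had been regrouped to match tumour size. No transgene or deletion is listed for any group. The tumour is a transplanted line under the skin, and the extract was given only to tumour-bearing mice. Nothing in the labels ties a library to its own animal. The p-values therefore reflect only how these libraries vary, and that variation may be technical.

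The labels of 6 of the 8 libraries conflict. Tables belonging to Normal-titled samples are named Control in their names and headers, and the reverse, and the groups here follow the titles. Every direction below therefore holds for libraries titled Control or titled Normal. If the table names hold instead, the Control against Normal changes turn sign and the RP comparisons with these groups change places. Libraries held 9528011 to 12333767 counts. All 12 muscle markers, among them the creatine kinase gene Ckm and the skeletal actin gene Acta1, were detected in every library. The markers of red cells and neutrophils differed between groups. The 12 listed erythroid markers, of which 10 were measured, summed to 6582 and 27958 CPM in the RP, 9288 to 11818 CPM in the Control-titled and 29766 to 162243 CPM in the Normal-titled libraries. The neutrophil markers summed to 43.5 and 515 CPM in the RP, 18.7 to 33.1 CPM in the Control-titled and 974 to 1999 CPM in the Normal-titled libraries. Of the neutrophil markers, Elane and Mpo were at 0 in all RP and Control-titled libraries, and Ltf in RP 1 and all Control-titled libraries. The fast-fibre markers summed to 155596 and 152500.0 CPM in the RP, 130601 to 153640.0 CPM in the Control-titled and 87440.1 to 126189 CPM in the Normal-titled libraries, so that Normal 3 lay nearest to the Control-titled libraries.

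Glycolysis splits glucose into pyruvate in the cytosol, and fast muscle fibres rely on it for quick ATP. Glucose enters the fibre through transporters and is trapped as glucose 6-phosphate by hexokinase, while glycogen phosphorylase releases glucose units from the fibre's own glycogen store. Muscle carries its own isoforms for many steps, such as Pgam2, Eno3, Pygm and Fbp2, beside the isoforms that most cells use. In bulk muscle RNA, fewer cells of a type and less RNA per cell cannot be told apart.

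Levels are given as CPM on the effective library size after TMM normalization, a scaling that compares libraries by the bulk of their genes. The kit reads the 3′ end of each transcript, so that CPM was not divided by transcript length. Tests are edgeR's quasi-likelihood test on the counts with Benjamini-Hochberg adjustment over all 13174 rows, and a gene passed at an adjusted p under 0.05. Changes are log2 changes of the first group named over the second, each with its standard error (SE).

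In libraries titled Control, 8 of the 28 tested members were higher and 2 lower than in libraries titled Normal. The genes that rose were the muscle phosphoglycerate mutase Pgam2, the muscle enolase Eno3, pyruvate kinase Pkm, triosephosphate isomerase Tpi1, the regulatory enzyme Pfkfb1, the phosphorylase kinase subunits Phka1 and Phkg1, and the phosphoglucomutase Pgm2. The genes that fell were hexokinase 2, Hk2, and the UDP-glucose pyrophosphorylase Ugp2. In the libraries titled RP, Hk2 alone passed against the Control-titled libraries, 3.46-fold higher. Over all rows, 10.4% were called in Control against Normal, 4.99% higher and 5.45% lower. In RP against Control 0.175% of rows were called, 0.144% higher and 0.0304% lower.

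**Figure D1:**
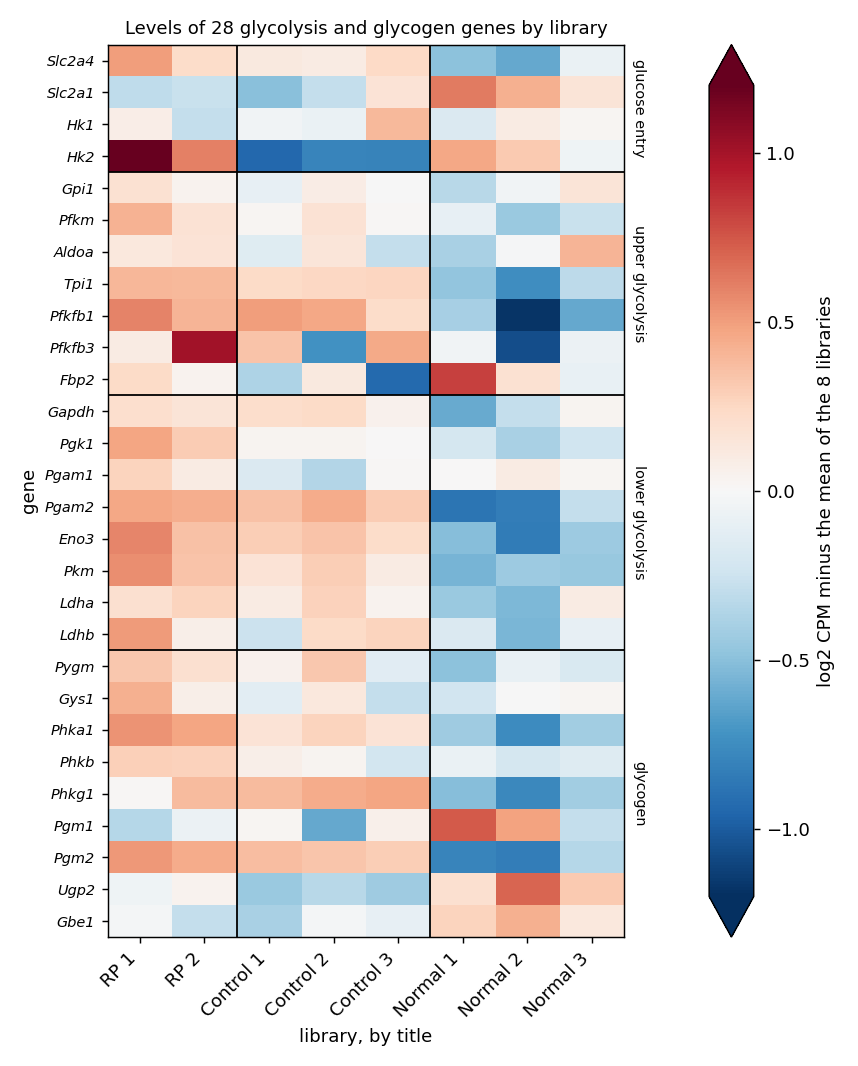
Heat map of the 28 tested genes (rows, grouped by step) in the 8 libraries (columns, by title), coloured by log2 CPM minus the gene's mean over the 8 libraries. Most rows of lower glycolysis are red in the RP and Control-titled columns and blue in the Normal-titled columns, whereas Hk2 is red in RP, blue in Control and intermediate in Normal.

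Hk2 encodes the insulin-responsive hexokinase of muscle (chromosome 6, 82725025 to 82774454, minus strand, build GRCm38.p6, which is mm10). It stood at 1276 and 833 CPM in the RP libraries, 284, 317 and 314 CPM in the Control-titled libraries and 753, 679 and 527 CPM in the Normal-titled libraries. Every RP library lay above every Normal-titled library, and every Normal-titled library above every Control-titled library. The group levels were 1055 ± 313 CPM (SD, n = 2) in RP, 305 ± 17.9 CPM (SD, n = 3) in Control and 653 ± 115 CPM (SD, n = 3) in Normal. The log2 change of Hk2 was 1.79 ± 0.202 (SE) in RP against Control, with a 95% interval of 1.35 to 2.23 and an adjusted p of 0.00173 in edgeR. In Control against Normal it was -1.10 ± 0.185 (SE), with an adjusted p of 0.00251 in edgeR. In RP against Normal it was 0.69 ± 0.202 (SE) and did not pass (adjusted p = 0.0912 in edgeR). The Hk2 change in RP against Normal did pass with no filter (adjusted p = 0.0204 in edgeR), by DESeq2 (0.0215) and without Normal 1 (0.0338 in edgeR). In the other alternatives it did not. By p-value Hk2 ranked 5 among the 23 rows called in RP against Control, and by the size of its change 14 of 23. The Hk2 call in RP against Control held in all 15 alternatives, from 1.45 without RP 1 to 2.07 without RP 2. RP 1, the library with the higher Hk2, had 43.5 CPM in neutrophil markers and 6582 CPM in erythroid markers, whereas RP 2 had 515 and 27958 CPM, and the part of these cells in the result was not tested.

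Hk1, the hexokinase of most tissues, was at a lower level on the same scale and did not pass in any comparison. It stood at 18.9 and 14.6 CPM in RP, 17.3, 16.8 and 23.3 CPM in Control and 15.7, 19.0 and 18.1 CPM in Normal, and the 3 groups overlapped. The ratio of Hk2 to Hk1 counts within a library does not depend on normalization. It was 67.5 and 56.9 in RP, 16.4, 18.8 and 13.4 in Control and 47.7, 35.6 and 29.1 in Normal, with no overlap between any groups. The difference in mean log2 ratio was 1.95 for RP minus Control and -1.19 for Control minus Normal. Each had an exact permutation p of 0.1, the smallest that these group sizes allow (2-sided), and an adjusted p of 0.2625 over the 21 tests of 7 pairs.

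Slc2a4 encodes GLUT4, the insulin-responsive glucose transporter of muscle and fat (chromosome 11, 69942286 to 69948216). It stood at 546 and 449 CPM in RP, 419, 413 and 456 CPM in Control and 274, 251 and 364 CPM in Normal. RP and Control overlapped, and both lay above Normal. Its log2 change was 0.53 ± 0.164 (SE) in Control against Normal, just short of passing (adjusted p = 0.0556 in edgeR), and 0.75 ± 0.180 (SE) in RP against Normal, just inside (adjusted p = 0.0482 in edgeR). In Control against Normal it passed with upper-quartile scaling (adjusted p = 0.0417), limma-voom (0.0388), DESeq2 (0.0228), no filter (0.0284), rows kept from a mean CPM of 5 (0.0427) and without Normal 3 (0.00755), and in the other 10 alternatives it did not. In RP against Normal it did not pass with RLE normalization (adjusted p = 0.0501), with only the compared groups (0.177), with log2 Hba-a1, a haemoglobin gene, as a covariate (0.129), or without Normal 2, RP 1 or RP 2 (0.167, 0.369 and 0.0737). Slc2a1 encodes GLUT1, a glucose transporter of many cell types. It stood at 12.8 and 13.2 CPM in RP, 11.2, 13.0 and 17.8 CPM in Control and 24.4, 21.3 and 17.7 CPM in Normal. Its log2 change in Control against Normal was -0.59 ± 0.202 (SE), with an adjusted p of 0.0808 in edgeR. The last 1000 bases of Slc2a1 overlap Gm12868 on the opposite strand. The Normal-titled libraries also had the higher erythroid marker sums. Among them, Normal 3 had the highest sum (162243 CPM) and the lowest Slc2a1. The part of erythroid cells in Slc2a1 was not tested. The ratio of Slc2a4 to Slc2a1 counts was 42.4 and 34.0 in RP, 37.2, 31.6 and 25.5 in Control and 11.2, 11.7 and 20.5 in Normal, so that Normal lay below both other groups.

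Promoter sequence is shown for 3 members with a single promoter window listed: Hk2, Pgam2 and Eno3. Hk2 fell in Control against Normal and rose in RP against Control. Pgam2 and Eno3, muscle isoforms, rose in Control against Normal. The RefSeq span of Eno3 begins upstream of its window, at 70653125, so the start used is not the first base of the gene. Each window holds the 250 bases before the start in RefSeq (build GRCm38.p6), 5′ to 3′ on the gene's strand, at chr6:82774455-82774704 for Hk2 (minus), chr11:5803797-5804046 for Pgam2 (minus) and chr11:70656926-70657175 for Eno3 (plus, within the RefSeq span of the gene). Capitals mark matches to any of 6 motifs on either strand.
Hk2: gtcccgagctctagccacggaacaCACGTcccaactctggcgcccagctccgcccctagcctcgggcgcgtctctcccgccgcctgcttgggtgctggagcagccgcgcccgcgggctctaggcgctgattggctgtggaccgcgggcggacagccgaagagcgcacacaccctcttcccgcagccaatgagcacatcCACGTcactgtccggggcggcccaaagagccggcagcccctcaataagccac
Pgam2: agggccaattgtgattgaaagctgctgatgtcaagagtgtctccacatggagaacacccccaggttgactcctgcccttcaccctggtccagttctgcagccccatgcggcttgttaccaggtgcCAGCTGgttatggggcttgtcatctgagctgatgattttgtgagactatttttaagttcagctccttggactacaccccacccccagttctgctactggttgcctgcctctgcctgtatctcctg
Eno3: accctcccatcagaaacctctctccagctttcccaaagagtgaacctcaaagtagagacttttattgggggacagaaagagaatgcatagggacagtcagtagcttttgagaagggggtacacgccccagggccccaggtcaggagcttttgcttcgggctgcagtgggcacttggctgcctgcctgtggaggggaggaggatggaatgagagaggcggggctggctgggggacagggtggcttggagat
The first motif was the E-box CACGTG. The second, ACGTG, is the core of hypoxia response elements and lies within the first. CAGCTG is the E-box favoured by myogenic factors. TGTTTAC is bound by FoxO factors. The others were the TATA box, searched as TATAAA, and a form of the MEF2 site that leaves its 4 middle bases free. That form fixes all its other bases, including the first and the last, and variants with other end bases were not searched. A window without a match to it, including each of the 3 shown, may therefore still hold a MEF2 site. The Hk2 window held ACGTG at 2 places, beginning 226 and 52 bases before the start, both on the reverse strand and so printed as CACGT. A match to ACGTG was found in 16.6% of the 32851 windows of all genes. CAGCTG lay 125 bases before the start of Pgam2, and was found in 13% of all windows. The other motifs were in 6.02% (CACGTG), 3.2% (the MEF2 form), 3.17% (TGTTTAC) and 12.4% (TATAAA) of all windows. No motif searched was found in the Eno3 window. These matches describe letters and do not show that a factor binds there.

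Upper glycolysis turns glucose 6-phosphate into triose phosphates. Of its 7 members, 2 were higher and 5 did not pass in Control against Normal, and none passed against Control in RP by edgeR (log2 changes of 0.11 to 0.51, 0 at an unadjusted p under 0.05 and 0 by DESeq2). Tpi1, which interconverts the triose phosphates, stood at 1020.1 and 1017 CPM in RP, 909.5, 922 and 924 CPM in Control and 559, 461 and 624 CPM in Normal. The Normal-titled libraries lay below all others. Its log2 change in Control against Normal was 0.74 ± 0.147 (SE), with an adjusted p of 0.00616 in edgeR. Its last 1000 bases overlap Spsb2 on the opposite strand, and since the strand counted is not stated the counts of the pair cannot be fully told apart.

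Pfkfb1 and Pfkfb3 make and degrade fructose 2,6-bisphosphate, the activator of phosphofructokinase. Pfkfb1 (chromosome X, 150587445 to 150643878) stood at 44.4 and 38.9 CPM in RP, 41.5, 40.5 and 34.1 CPM in Control and 22.2, 13.0 and 19.2 CPM in Normal. RP and Control overlapped, and Normal lay below both. The log2 change of Pfkfb1 in Control against Normal was 1.09 ± 0.191 (SE), the largest increase among the 28 members, with an adjusted p of 0.00326 in edgeR. Pfkfb3 varied more within groups than between them, at 168 and 317 CPM in RP, 199, 94.9 and 215 CPM in Control and 153, 75.1 and 150.0 CPM in Normal.

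The other upper members did not pass in Control against Normal. Pfkm, the muscle phosphofructokinase, was at 1033 ± 124 CPM (SD, n = 2) in RP, 881 ± 53.9 CPM (SD, n = 3) in Control and 697 ± 83.9 CPM (SD, n = 3) in Normal, and every Control-titled library lay above every Normal-titled one. Gpi1, the phosphoglucose isomerase, ranged from 356 to 392 CPM in RP, 323 to 367 CPM in Control and 274 to 385 CPM in Normal. Aldoa, the muscle aldolase and the member with the highest CPM, stood at 11619 and 11942 CPM in RP, 8727 to 11808 CPM in Control and 8123 to 14128 CPM in Normal. The highest and the lowest Aldoa levels were both in Normal-titled libraries. Fbp2, the muscle fructose bisphosphatase that runs the step of Pfkm backwards, was at 63.7 and 56.1 CPM in RP, 42.2, 58.9 and 28.6 CPM in Control and 96.1, 61.9 and 51.2 CPM in Normal. Its log2 change in Control against Normal was -0.69 ± 0.257 (SE), with an adjusted p of 0.106 in edgeR, opposite in sign to that of Pfkm (0.34 ± 0.148). The Fbp2 change passed in edgeR with no filter (adjusted p = 0.0124), with a replicate block (0.0422), without Normal 3 (0.0378) and without Control 2 (0.0495). In the other alternatives it did not.

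Lower glycolysis turns triose phosphates into pyruvate and lactate. Of its 8 tested members, 3 were higher in Control than in Normal (Pgam2, Eno3 and Pkm), and 5 did not pass. Pgam2 (chromosome 11, 5801637 to 5803796) stood at 2068 and 2028 CPM in RP, 1907, 2039.8 and 1851 CPM in Control and 817, 843 and 1228 CPM in Normal. All Normal-titled libraries lay below all others, with Normal 3 the nearest. Its log2 change in Control against Normal was 1.01 ± 0.172 (SE), with an adjusted p of 0.00277 in edgeR. Pgam1, the form of most tissues, did not pass, at 19.1 and 17.0 CPM in RP, 14.0, 12.4 and 16 CPM in Control and 15.8, 16.9 and 16.1 CPM in Normal. The ratio of Pgam2 to Pgam1 counts was 108 and 119 in RP, 136, 164 and 115 in Control and 51.4, 49.6 and 76.0 in Normal. RP and Control overlapped in it, and Normal lay below both. The mean log2 ratio differed by 1.24 between Control and Normal, with an exact permutation p of 0.1, the smallest possible.

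Eno3 (chromosome 11, 70653125 to 70662513) stood at 4311 and 3651 CPM in RP, 3515, 3634 and 3349.5 CPM in Control and 2011, 1601 and 2122 CPM in Normal, a log2 change of 0.87 ± 0.157 (SE) in Control against Normal (adjusted p = 0.00377 in edgeR). Every Normal-titled library lay well below the other 5. A ratio to Eno1 could not be formed, because the row of that gene was at 0 throughout. The 2 rows named Eno1b, whose 3′ end shares 50-base stretches with that of Eno1, held 102 to 179 counts and 133 to 164 counts per library. Whether reads of Eno1 were counted there was not tested.

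Pkm (chromosome 9, 59656576 to 59679372), whose product makes pyruvate and ATP, stood at 1501 and 1289.5 CPM in RP, 1141, 1252 and 1090.4 CPM in Control and 691, 756 and 743 CPM in Normal. The groups did not overlap, with RP above Control and Control above Normal. Its log2 change was 0.67 ± 0.140 (SE) in Control against Normal (adjusted p = 0.00877 in edgeR) and 0.27 ± 0.155 (SE) in RP against Control, with a 95% interval of -0.069 to 0.60. The 3′ end of Pkm shares 50-base stretches with 5 pseudogenes. Those of Ldha, Aldoa, Tpi1, Gpi1 and Ldhb share such stretches with 13, 6, 2, 1 and 1 other genes, so that these counts are also less certain.

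**Figure D2:**
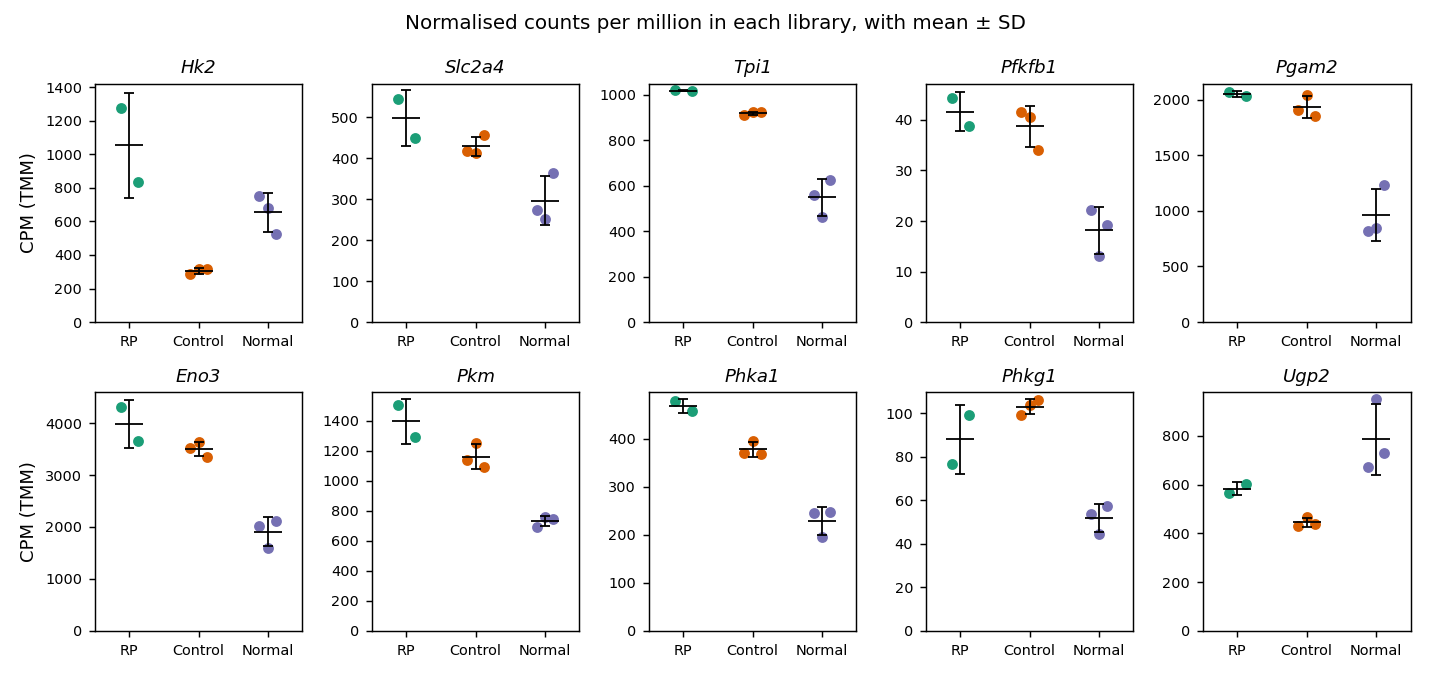
CPM (vertical axes, from 0, each panel with its own scale) of 10 members in each library, by titled group, with a black line and bar for mean ± SD. Hk2 is lowest in Control and highest in RP, 8 genes from Slc2a4 to Phkg1 are lowest in Normal, and Ugp2 is highest in Normal.

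Gapdh, Pgk1, Ldha and Ldhb did not pass in Control against Normal, with log2 changes of 0.43, 0.30, 0.41 and 0.36. Gapdh, a gene often used as a reference in muscle assays, stood at 316 and 306 CPM in RP, 317, 322 and 285 CPM in Control and 180.2, 226 and 281 CPM in Normal. The Control-titled libraries lay above the Normal-titled ones, but Normal 3 came close to Control 3. The last 1000 bases of Gapdh overlap Iffo1 on the opposite strand. Its 3′ end shares 50-base stretches with 172 other annotated loci, so that its count is uncertain. Pgk1, an ATP-forming kinase, stood at 230.2 and 204 CPM in RP, 169, 169.6 and 166 CPM in Control and 143, 127 and 140.2 CPM in Normal, with no overlap between the groups.

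Ldha, the lactate dehydrogenase subunit of fast muscle, stood at 1394 and 1469.8 CPM in RP, 1308, 1474 and 1250.5 CPM in Control and 895, 838 and 1305 CPM in Normal. Normal 3 lay within the range of the Control-titled libraries. Ldhb, the subunit of heart and slow muscle, was at 153 ± 32.6 CPM (SD, n = 2) in RP, 133 ± 25.3 CPM (SD, n = 3) in Control and 103 ± 16.6 CPM (SD, n = 3) in Normal. The ratio of Ldha to Ldhb was 7.92 and 11.3 in RP, 12.6, 10.2 and 8.37 in Control and 8.14, 9.91 and 11.3 in Normal, and the groups overlapped. The mean log2 ratio differed by 0.082 between Control and Normal (exact permutation p = 0.7).

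**Figure D3:**
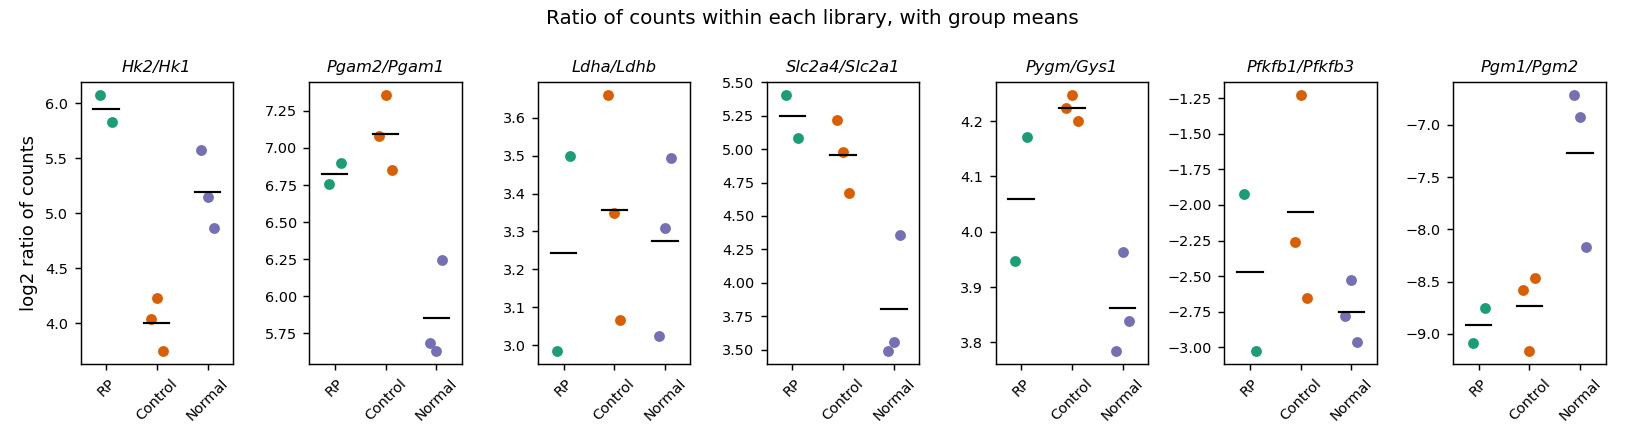
Log2 ratio of the counts of 7 gene pairs (panels, each with its own vertical scale) in each library, by titled group, with group means as lines. The Hk2/Hk1 groups stand apart, with Control lowest, Pgam2/Pgam1 and Slc2a4/Slc2a1 are lowest in Normal, and the Ldha/Ldhb groups overlap.

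Glycogen handling held members that changed in both directions in Control against Normal. Of 9 members, 3 were higher (Phka1, Phkg1 and Pgm2) and 1 lower (Ugp2). Phosphorylase kinase activates glycogen phosphorylase and has regulatory subunits encoded by Phka1 and Phkb and a catalytic one encoded by Phkg1. Phka1 (chromosome X, 102513975 to 102644301) stood at 478 and 457 CPM in RP, 369.8, 396 and 368 CPM in Control and 245, 195 and 247 CPM in Normal. The groups did not overlap, with RP highest and Normal lowest. Its log2 change was 0.72 ± 0.143 (SE) in Control against Normal, with an adjusted p of 0.00618 in edgeR.

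Phkg1 (chromosome 5, 129863431 to 129879134) stood at 76.8 and 99.2 CPM in RP, 99.3, 104 and 106 CPM in Control and 53.6, 44.6 and 57.2 CPM in Normal. It was the single member whose RP libraries both lay below all Control-titled ones, by a log2 change of -0.23 ± 0.167 (SE) that did not pass (adjusted p = 0.741 in edgeR). In Control against Normal its change was 0.99 ± 0.151 (SE), with an adjusted p of 0.00125 in edgeR, the lowest adjusted p of any member in that comparison. The last 1000 bases of Phkg1 overlap Sumf2 on the opposite strand, and its 3′ end holds sequence found in 74 other genes, so that its count is uncertain. Phkb stood at 148 CPM in both RP libraries, 104 to 128 CPM in Control and 105 to 116 CPM in Normal, and did not pass in any comparison.

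Pgm2 stood at 1144 and 1086 CPM in RP, 1028, 1004 and 976 CPM in Control and 458, 447 and 627 CPM in Normal, a log2 change of 0.97 ± 0.158 (SE) in Control against Normal (adjusted p = 0.00192 in edgeR). The Normal-titled libraries lay below all others. Phosphoglucomutase links glucose 1-phosphate from glycogen with glucose 6-phosphate. RefSeq lists Pgm1 and Pgm2 as synonyms of each other, so which of the loci each row counts is not settled by the symbol, and no position is given. The row named Pgm1 was at 2.05 and 2.47 CPM in RP, 1.70 to 2.71 CPM in Control and 2.14 to 4.32 CPM in Normal.

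Ugp2 makes UDP-glucose, the donor for glycogen synthesis (chromosome 11, 21321126 to 21371267). It stood at 564 and 602 CPM in RP, 431, 467 and 437 CPM in Control and 672, 952 and 731 CPM in Normal. The groups did not overlap, with RP between Control and Normal. Its log2 change was -0.82 ± 0.156 (SE) in Control against Normal (adjusted p = 0.00515 in edgeR) and 0.39 ± 0.172 (SE) in RP against Control, which did not pass (adjusted p = 0.538). Gbe1, the branching enzyme, stood at 52.1 and 43.2 CPM in RP, 40.2, 52.0 and 49.3 CPM in Control and 63.4, 70.9 and 57.6 CPM in Normal. Its log2 change in Control against Normal was -0.44 ± 0.153 (SE), with an adjusted p of 0.0856 in edgeR. Gys1, the muscle glycogen synthase, overlapped between Control and Normal, with a log2 change of -0.023 ± 0.160 (SE).

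Pygm, the muscle glycogen phosphorylase, stood at 4414 and 4015 CPM in RP, 3649.8, 4411 and 3203 CPM in Control and 2510.5, 3314 and 3105 CPM in Normal, with a log2 change of 0.34 ± 0.168 (SE) in Control against Normal that did not pass (adjusted p = 0.228 in edgeR). Control 3 lay below Normal 2, so the groups overlapped. Relative to Gys1 in the same library the counts of Pygm did not overlap between these groups. The ratio was 15.4 and 18.0 in RP, 18.7, 19.0 and 18.4 in Control and 13.8, 15.6 and 14.3 in Normal. The mean log2 ratio was 0.36 higher in Control than in Normal (exact permutation p = 0.1, the smallest possible).

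The median log2 change of the 28 members was 0.34 in Control against Normal, 0.20 in RP against Control and 0.53 in RP against Normal, against 0.00043, -0.0038 and -0.037 over all rows tested. In Control against Normal, 12 members had every Control-titled library above every Normal-titled one and 3 below, where 16.6% and 14.7% of all rows did so (31.3% in either direction). At an unadjusted p under 0.05, 13 members were higher and 5 lower, where 26.3% of all rows passed. Many members were among the rows with the highest mean CPM, such as Pygm and Eno3 (both at percentile 99.8), while Pgm1 was at percentile 16.3. The medians and shares over all rows were not matched to the members' level. The summed counts of lower glycolysis took 0.976 and 0.877% of counts in RP, 0.903 to 0.910% in Control and 0.453 to 0.514% in Normal. Outside haemoglobin genes and the ribosomal row Rn45s, which together took the largest share in Normal 3, these were 1.03 and 0.940% in RP, 0.941 to 0.964% in Control and 0.517 to 0.644% in Normal, and the groups of Control and Normal still did not overlap. Upper glycolysis, of which Aldoa is the bulk, overlapped between Control and Normal at 1.28 to 1.52% and 1.21 to 1.74%.

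**Figure D4:**
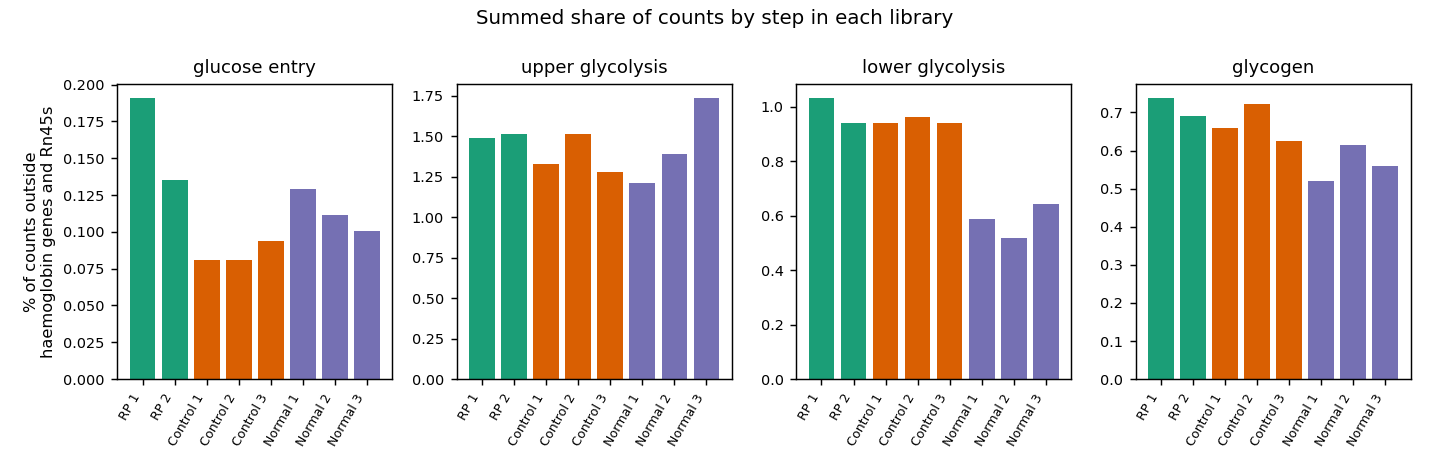
Summed counts of the members of each step (panels) as a percent of counts outside haemoglobin genes and Rn45s (vertical axes from 0), 1 bar per library. Lower glycolysis is lower in all 3 Normal-titled libraries (0.517 to 0.644%) than in the other 5 (0.940 to 1.03%), and glucose entry is highest in RP 1 (0.191%).

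In Control against Normal with log2 Hba-a1 as a covariate, 3 members were higher (Pgam2, Phkg1 and Pgm2) and 1 lower (Hk2). In that fit 2.9% of all rows were called. The fitted changes of the 10 called members kept their sign. The 6 that then missed the threshold had log2 changes of 0.86 (Tpi1), 0.89 (Pfkfb1), 0.83 (Eno3), 0.64 (Pkm), 0.72 (Phka1) and -0.70 (Ugp2), with adjusted p-values in edgeR of 0.0568 to 0.14. Without each library in turn, 8 to 11 members were higher and 2 to 4 lower, the most in both directions without Normal 3. Over these fits 4.65 to 14.2% of all rows were called, and 11.5% without Normal 3.

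By the titles, the comparison of RP with Control addressed the effect of the extract in tumour-bearing mice. If the table names hold instead, these groups differ in both tumour and extract. Hk2 was the single member called, where 0.144% of all rows were called higher, and edgeR called 0 members lower, also 0 at an unadjusted p under 0.05 and 0 by DESeq2 and limma-voom. At an unadjusted p under 0.05, 3 members were higher, where 8.98% of all rows passed. Of the 28 members, 11 had both RP libraries above all Control-titled ones and 1 below, where 15.3% and 16.4% of all rows did so (31.7% in either direction). The widths of the intervals set what could be seen. The 95% interval of the log2 change was -0.33 to 0.49 for Pgam2, -0.18 to 0.60 for Slc2a4, -0.38 to 0.41 for Gapdh and -0.26 to 1.29 for Pfkfb3. For each of these genes, changes within its interval cannot be told from none. For Pfkfb3 they include a rise as large as 1.29.

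**Figure D5:**
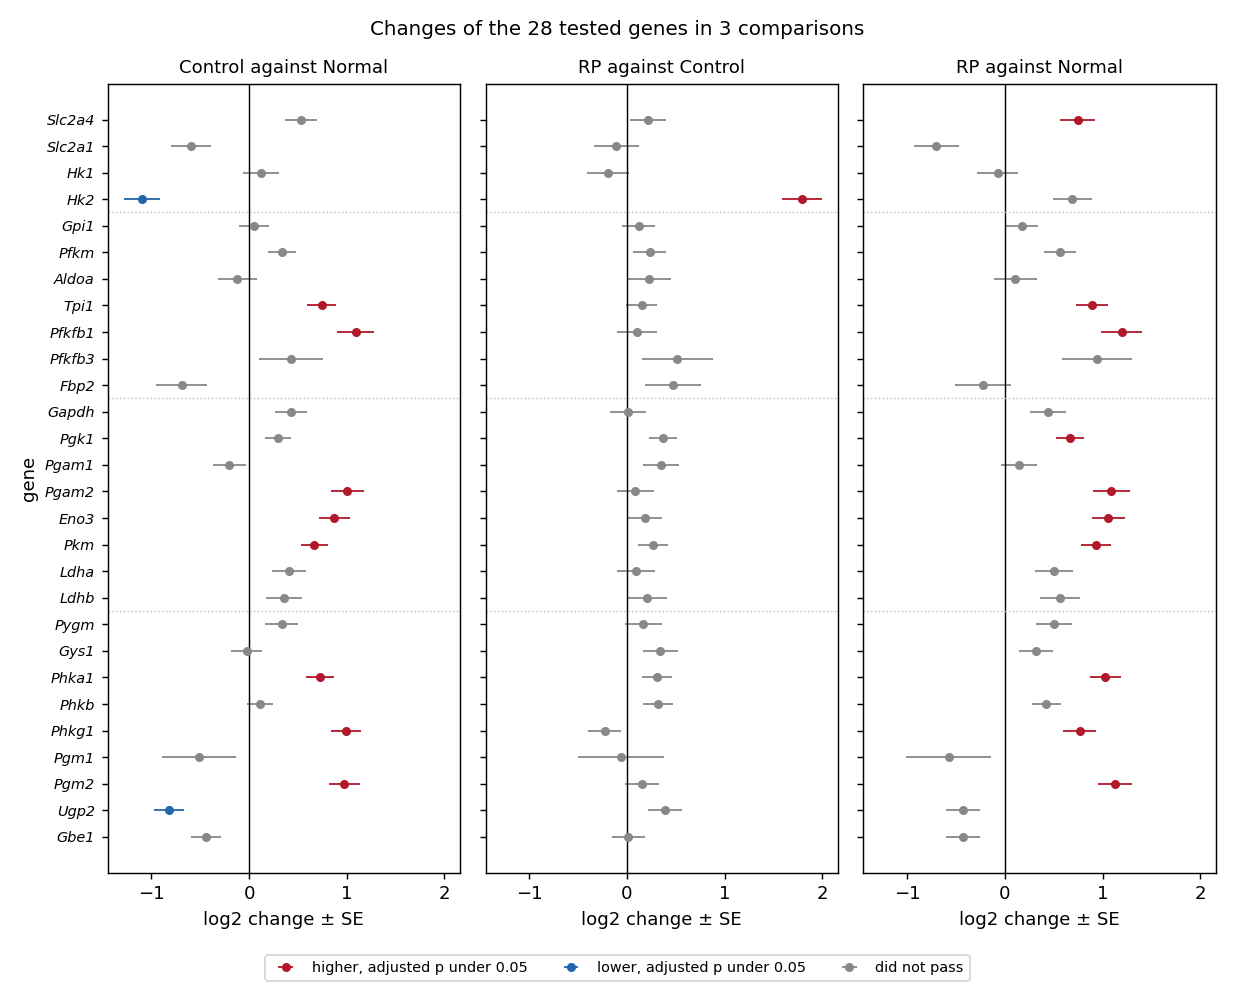
Log2 change ± SE (horizontal axes) of the 28 tested genes (rows, by step) in the 3 comparisons (panels), with genes of adjusted p under 0.05 in red (higher) or blue (lower). In RP against Control, Hk2 at 1.79 stands apart from the other 27 genes, which lie between -0.23 and 0.51.

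By the titles, the Normal libraries differ from RP in both tumour and extract. Against them, 10 members were higher in RP and 0 lower by edgeR, where 1.67% and 0.835% of all rows were called (2.5% in all). At an unadjusted p under 0.05, 18 were higher and 3 lower, where 17.1% of rows passed. Of the 28, 20 had both RP libraries above all Normal-titled ones and 3 below, where 15.4% of all rows did so in each direction (30.8% in either). By edgeR no member was lower at the adjusted threshold, and DESeq2 and limma-voom also called 0 lower. The largest changes in RP against Normal were those of Pfkfb1 (1.196 ± 0.209), Pgm2 (1.13 ± 0.172), Pgam2 (1.09 ± 0.188), Eno3 (1.06 ± 0.171) and Phka1 (1.03 ± 0.157). Pgk1 passed in this comparison, with a log2 change of 0.67 ± 0.146 (SE) and an adjusted p of 0.0294 in edgeR. Without RP 1, 0 members passed in edgeR, which then takes the lone RP library to vary like the other groups, and 57 of all rows did. The log2 changes of the 10 were then 0.58 (Pgk1) to 1.10 (Pfkfb1), against 0.67 and 1.196 with both, and those of Pgm2, Pgam2, Phka1 and Eno3 were 1.09, 1.08, 0.998 and 0.93. All 10 kept their sign in all 15 alternatives. Without RP 2 the count was 6. It was 5 without Normal 2, 5 with the Hba-a1 covariate and 3 with only the RP and Normal libraries in the fit. Of all rows, 1.05, 0.789 and 0.78% were called in these 3 fits. These comparisons share the Normal-titled and RP libraries with those above.

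Lists of genes around the pathway are set beside the same shares of all rows, 4.99% higher and 5.45% lower in Control against Normal. Among 19 tested of 23 other glycogen genes, 0 were higher, 4 lower and the rest did not pass (edgeR; also 0 higher at an unadjusted p under 0.05 and by DESeq2 and limma-voom). Ppp1r3c, which targets a phosphatase to glycogen and activates its synthesis, stood at 1025 and 798 CPM in RP, 224, 246 and 288 CPM in Control and 386, 671 and 1229 CPM in Normal. The Control-titled libraries lay below all others. Its log2 change was -1.59 ± 0.311 (SE) in Control against Normal (adjusted p = 0.00579 in edgeR) and 1.85 ± 0.337 (SE) in RP against Control, just short of passing (adjusted p = 0.0512). The others that fell were Ppp1r3d (-0.98), Gsk3b (-0.65), a kinase that inhibits glycogen synthase, and Gaa (-0.74), the lysosomal glucosidase that degrades glycogen. 

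Among 13 tested of 16 other transport genes, 2 were lower in Control against Normal, where 5.45% of all rows were, and 0 higher by edgeR (1 at an unadjusted p under 0.05, 1 by DESeq2 and 0 by limma-voom). These were Tbc1d4 (-1.06) and Tbc1d1 (-0.82), which hold GLUT4 vesicles inside the cell until phosphorylated. Tbc1d4 stood at 28.9 and 24.0 CPM in RP, 23.02, 28.9 and 23.9 CPM in Control and 30.1, 61.5 and 66.2 CPM in Normal, so that Normal 1 lay close to Control 2.

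Of 21 tested among 22 genes of pyruvate entry and the glycerol phosphate shuttle, 5 were higher in Control against Normal, where 4.99% of all rows were, and 0 lower by edgeR (1 at an unadjusted p under 0.05, 0 by DESeq2 and limma-voom). They were the glycerol phosphate dehydrogenases Gpd1 (0.97) and Gpd2 (0.53), the pyruvate dehydrogenase phosphatase Pdp1 (0.89) and the pyruvate carrier subunits Mpc1 (0.52) and Mpc2 (0.50). Gpd1 stood at 399 and 343 CPM in RP, 339, 337 and 333 CPM in Control and 166, 122 and 228 CPM in Normal, with Normal below both other groups. In RP against Normal, where 1.67% of all rows were called higher, 3 of these genes were higher, Gpd1 (1.11), Pdp1 (0.96) and Gpd2 (0.79). Of 12 genes of the pentose phosphate and hexosamine routes, 0 passed in Control against Normal by edgeR, DESeq2 or limma-voom, with 1 lower and 0 higher at an unadjusted p under 0.05.

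Of 29 regulators, 1 was higher and 8 lower in Control against Normal, where 4.99% of all rows were higher and 5.45% lower. Prkag3, the AMP-activated kinase subunit of glycolytic muscle, rose, at 124 and 101 CPM in RP, 139, 159.6 and 119 CPM in Control and 27.5, 18.7 and 36.3 CPM in Normal (log2 change 2.34 ± 0.220 (SE), adjusted p = 4.21e-05 in edgeR). The hypoxia factor Hif1a (-0.76) and Egln3 (-1.60), an oxygen sensor that is itself a target of Hif1a, fell, as did the nuclear receptor Nr4a3 (-4.54), the coactivator Ppargc1a (-1.92) and the PI3-kinase subunit Pik3r1 (-0.95). In RP against Control, where 0.144% of all rows were called higher, 2 of the 29 rose and 0 fell (edgeR; also 0 at an unadjusted p under 0.05 and by DESeq2 and limma-voom). Ppargc1a stood at 328 and 229 CPM in RP, 38.5, 40.2 and 50.4 CPM in Control and 179.9, 209 and 98.7 CPM in Normal. Nr4a3 stood at 111 and 82.5 CPM in RP, 0.705, 3.90 and 3.98 CPM in Control and 93.8, 61.8 and 42.5 CPM in Normal. In both genes, as in Hk2, the Control-titled libraries lay below all others, but for Nr4a3 the RP and Normal-titled ranges overlapped.

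Markers of fibre type and of other cells moved in part with these genes. Of 12 fast-fibre markers, 4 were higher in Control against Normal and 0 lower (edgeR), where 4.99% and 5.45% of all rows were. The median log2 change of the fast-fibre markers was 0.10. Of 10 slow-fibre markers, 0 passed in either direction. The slow-fibre markers summed to 3555 and 3376 CPM in RP, 3312 to 4019.6 CPM in Control and 2691 to 4404 CPM in Normal, and these ranges overlapped. Of 10 tested erythroid markers 9 were lower, of 11 tested neutrophil markers 9 were lower, and of 10 fibroblast and tendon markers 6 were higher in Control against Normal. In the same comparison 2 of 12 muscle markers were higher and 1 lower. Of 8 Schwann cell markers 1 was higher, and of 10 endothelial markers 1 was lower. Against Control, RP had 2 neutrophil markers higher and 1 of 8 Schwann cell markers lower, where 0.144% and 0.0304% of all rows were. In RP against Normal, 3 fast-fibre and 4 fibroblast and tendon markers were higher, where 1.67% of all rows were. Lower were 3 erythroid, 2 neutrophil, 1 endothelial and 1 Schwann cell marker, where 0.835% of all rows were. The part of these cells and fibres in the changes of the glycolytic genes was not tested.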

How the data were processed

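The authors deposited 8 tables of raw read counts per gene symbol, without normalization. The libraries were made with a QuantSeq 3′ kit from 500 ng of RNA, per the labels' protocols. Bowtie2, edgeR and build mm10 are named, without versions, in the submitters' processing notes. The counting tool, strand and annotation are not given in the sources used here. Each table held 23282 rows, and 44 extra rows of 35 repeated symbols were kept apart. Groups followed the titles. Rows passing filterByExpr (13174) were fitted with edgeR 4.0.16 under R 4.3.3 (quasi-likelihood test, TMM, all 8 libraries in 1 fit, common coefficient of variation 0.195), 2-sided.

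Pair ratios added 0.5 to each count. All 29 members were named, and of each fixed list at most the 6 passing genes with the largest change. Promoters of Pfkfb1 and Pfkfb3, which have several annotated starts, were not shown. The window of Phka1, which overlaps its gene span in part, was also left out, although that of Eno3 lies within its gene span. The Phka1 window held 1 match to CAGCTG and 1 to the MEF2 form. Alternatives used DESeq2 1.42.0, limma 3.58.1, other scalings and filters, fewer libraries, a replicate block and a haemoglobin covariate. The fits were tested on simulated data. The members and lists were chosen with earlier results of these data known. The list of other isoforms is not reported here. Intervals and floors cover counting error only, except those of log2 changes. Positions and promoters came from RefSeq (GRCm38.p6, the mm10 chromosomes), and overlaps and shared 3′ ends (50 bases within the last 300) from GENCODE. Figures were drawn with matplotlib 3.10.9.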

Additional observations from a re-analysis of the deposited data

How the results depend on the processing

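With upper-quartile scaling, which moved the median of all rows by 0.045 in Control against Normal, the split of calls was 761 higher and 615 lower, against 658 and 718. With the Hba-a1 covariate, 382 rows were called in Control against Normal (3 members higher, 1 lower) and 104 in RP against Normal (5 members higher). In RP against Control the count of 23 rows was 204 without a filter, 11 at a mean CPM of at least 5, 112 by DESeq2, 10 by limma-voom and 121 with only the compared groups. In RP against Normal the count of 330 rows was 718 without a filter, 676 by DESeq2 and 100 with only the compared groups, where 3 members were higher. Leaving out 1 library gave 608 to 1858 rows (805 without Normal 2, and 609, 846 and 608 without Control 1, 2 and 3) and 2 to 4 lower members in Control against Normal, 8 to 31 rows in RP against Control (15, 8 and 9 without Control 1, 2 and 3), and 57 to 670 rows and 0 to 12 higher members in RP against Normal (670, 137 and 580 rows without Normal 1, 2 and 3, 57 without RP 1).

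Besides Slc2a4, Hk2 and Fbp2, other members passed only in some alternatives. In Control against Normal, Slc2a1, Gapdh and Ldha passed without Normal 3 (adjusted p = 0.0421, 0.0218 and 0.0115 in edgeR). In RP against Normal, Gapdh and Ldha passed without Normal 3 (0.0446 and 0.0154 in edgeR). There Pfkfb3 passed with no filter (0.00877 in edgeR), and Pfkm by DESeq2 (0.017) and without Normal 1 (0.0222 in edgeR). Some changes that had not passed turned sign, and the cause was not tested. In Control against Normal, Gys1 was 0.021 with upper-quartile scaling and Aldoa 0.48 with the Hba-a1 covariate. In RP against Control, Gapdh and Gbe1 were -0.016 and -0.017 with upper-quartile scaling and -0.00718 and -0.0080 at a mean CPM of at least 5, and with the covariate Gapdh was -0.032 and Pgm1 0.051. Leaving out 1 library gave ranges across 0, which in Control against Normal were -0.30 to 0.10 for Aldoa, -0.0668 to 0.17 for Gpi1, -0.13 to 0.0713 for Gys1, -0.0452 to 0.22 for Hk1 and -0.0695 to 0.23 for the log2 ratio Ldha/Ldhb. In RP against Control they were -0.0388 to 0.0547 for Gapdh, -0.13 to 0.14 for Gbe1, -0.0266 to 0.41 for Ldhb, -0.0122 to 0.90 for Pfkfb3, -0.24 to 0.0654 for Pgm1, -0.25 to 0.10 for Slc2a1, -0.37 to 0.14 for the log2 ratio Ldha/Ldhb and -0.98 to 0.13 for the log2 ratio Pfkfb1/Pfkfb3, and in RP against Normal -0.0668 to 0.35 for Aldoa, -0.38 to 0.0821 for Fbp2, -0.27 to 0.10 for Hk1, -0.29 to 0.22 for the log2 ratio Ldha/Ldhb and -0.27 to 0.83 for the log2 ratio Pfkfb1/Pfkfb3.

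The replicate numbers of the titles were not treated as pairs in the main fit, and the numbers are shared only by name. Deviations from the group mean correlated at -0.073, -0.021 and -0.047 between same-numbered Control and Normal libraries. For same-numbered RP and Normal libraries the values were 0.052 and 0.088, and for RP and Control -0.070 and -0.063. With 2 or 3 libraries per group, these values cannot show whether the libraries are paired. The replicate block gave 1218, 17 and 262 calls in Control against Normal, RP against Control and RP against Normal. Members higher and lower were then 8 and 3, 1 and 0, and 8 and 0. Hk1 in RP against Normal was 0.0065 under the block. No alternative reversed a called member. Depth limits rows such as Pgm1, at a few CPM.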
